A study of Mus musculus with 18 samples.

Results

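Matricellular proteins are secreted proteins that sit in the extracellular matrix and tune how cells attach to it, without being its main building material. Thrombospondins, tenascins, periostin, TGFBI and SPARC bind collagens, fibronectin, growth factors and surface receptors such as integrins, and fibronectin itself is the fibrillar glycoprotein on which many of them assemble. In bone marrow, stromal cells make much of this matrix, which also forms the surroundings of blood stem cells. The genes examined were Thbs1, Thbs2, Thbs3, Thbs4, Tnc, Tnxb, Postn, Tgfbi, Sparc and Fn1. All probe sets (groups of short oligonucleotides read as 1 signal) whose platform annotation gave exactly 1 of these symbols were taken. This gave 14 of 36701 probe sets, for 9 of the 10 genes. Thbs1 had no probe set of its own under this rule.

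RNA was measured in stromal cells of adult mouse bone marrow, isolated as CD34+ or CD34- cells and grown out as single-cell colonies (medium DMEM, 10% fetal bovine serum). CD34 is a sialomucin of the cell surface that is also found on blood progenitor cells and vessel lining. Each group had 3 RNAs, 6 in all, and every RNA was hybridised to 3 Affymetrix chip types (MG_U74Av2, MG_U74Bv2 and MG_U74Cv2) that carry different probe sets, so that 18 arrays were used. The labels give no mouse strain, age or sex, and they name other marrow cells as the possible contaminant. Whether the RNAs within a group were separate clones, cultures or animals is not stated, so p-values cover the spread among these 6 RNAs alone, and that spread may be technical. Were a group a single clone, clone and CD34 status could not be told apart.

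Of the 14 probe sets, 11 were on MG_U74Av2, 2 on MG_U74Bv2 and 1 on MG_U74Cv2. All levels are intensities after quantile normalization, and a difference is CD34+ minus CD34- on the log2(signal + offset) scale, where the offset is the 20th percentile of the chip type (51.5 on MG_U74Av2). Testing required a deposited signal over the array's 40th percentile on 3 or more of the 6 arrays, and a call required a limma adjusted p under 0.05. By that filter 9 of the 14 were tested and 5 were too dim. Levels of different probe sets are not compared, since each binds its target with its own strength.

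Cd34, the check of the labels, was higher in all 3 CD34+ RNAs at both of its probe sets (787.3 to 937.9 against 59.92 to 171.5, and 826.8 to 921.8 against 85.28 to 202.2). The first passed the filter only on the CD34+ arrays and the second on 1 CD34- array besides, so no fold is given. On MG_U74Av2 the correlation of arrays was 0.956 to 0.974 inside a group and 0.931 to 0.947 across groups. Of 12 stromal marker genes 9 were tested, all on MG_U74Av2, and 6 of these were called lower in CD34+ clones. Not called were Pdgfrb (log2 -0.63, limma adjusted p = 0.0515), Nt5e (log2 -0.20) and Vim, which differed in the other direction (log2 0.37). The probe sets of Nt5e and Vim were dim, with 95.22 to 199.4 and 46.96 to 289.1 over the 6 RNAs. Over all probe sets tested on MG_U74Av2 6.69% were called lower. The summed signal was 53210 to 56770 against 101500 to 108700. Most of that sum came from Col1a1 (mean 19940 against 42620) and Col1a2 (23660 against 36220), so it is not a reading over all 9. Of 9 macrophage and myeloid markers 3 were tested and 0 called, with 2590 to 3069 against 2422 to 3466. The platelet list had 1 of 9 tested (Itga2b, 332.1 to 553.2 against 207.6 to 295.8), the endothelial list 1 of 7 (Pecam1, 78.1 to 250.1 against 288.9 to 385.4) and the list of erythroid and neutrophil genes 2 of 9 (796.6 to 1119 against 606.9 to 1022), with 0 called in each. Their markers Ptprc, Itgam, Pf4, Ppbp, Cdh5 and Kdr stayed under the filter. With so few tested, 0 called says little, since 14.9% of all probe sets tested on MG_U74Av2 were called. Itga2b was read on MG_U74Cv2, where 0.0936% were called. Signs of RNA quality moved with the groups on MG_U74Av2. The 3' to 5' signal ratio of Gapdh was 0.7 to 0.771 in CD34+ and 0.802 to 0.832 in CD34- RNAs, and that of actin 1.03 to 1.09 against 1.1 to 1.2. On MG_U74Bv2 the groups overlapped for Gapdh (0.775 to 0.825 against 0.75 to 0.819) and actin (1.08 to 1.11 against 1.04 to 1.16). On MG_U74Cv2 they overlapped for Gapdh (0.764 to 0.787 against 0.73 to 0.811) but not for actin (0.951 to 1.02 against 1.03). Per the labels, RNA concentration was 0.421 to 0.721 µg/µl against 0.989 to 1.38 µg/µl. The part of these differences in the results below was not tested. In bulk RNA, fewer cells of a type and less RNA per cell cannot be told apart.

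The start regions of the 4 genes at either end of the response are shown first, because Tgfbi and Tnc were the genes called higher in CD34+ clones and Postn and Thbs3 had the largest fitted falls. Each run covers 250 bases before and 50 after a RefSeq transcription start on GRCm38.p6, 5′ to 3′ on the gene's strand. Of the 10 genes, 8 matched an entry by symbol. Where several starts were listed, the most downstream was taken. Capitals mark matches on either strand to the TATA box, spelled TATAAA. They also mark the GC box, spelled GGGCGG. The AP-1 site was searched as TGANTCA. The CCAAT box was searched by the letters of its name. No matches overlapped in these 4.
Tgfbi, chr13:56609336-56609635, + strand: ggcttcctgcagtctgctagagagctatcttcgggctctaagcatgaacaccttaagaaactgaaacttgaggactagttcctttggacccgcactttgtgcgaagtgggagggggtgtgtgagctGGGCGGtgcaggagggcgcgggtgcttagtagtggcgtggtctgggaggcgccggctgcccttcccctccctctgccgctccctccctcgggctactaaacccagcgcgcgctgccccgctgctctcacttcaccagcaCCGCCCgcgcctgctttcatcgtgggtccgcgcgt
Tnc, chr4:64046887-64047186, - strand: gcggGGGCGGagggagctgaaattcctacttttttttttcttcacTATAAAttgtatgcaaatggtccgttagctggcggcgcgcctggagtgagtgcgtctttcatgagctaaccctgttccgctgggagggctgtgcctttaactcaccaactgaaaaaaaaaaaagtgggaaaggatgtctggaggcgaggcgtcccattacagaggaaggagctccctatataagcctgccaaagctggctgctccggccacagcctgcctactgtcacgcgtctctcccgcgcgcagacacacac
Postn, chr3:54360857-54361156, + strand: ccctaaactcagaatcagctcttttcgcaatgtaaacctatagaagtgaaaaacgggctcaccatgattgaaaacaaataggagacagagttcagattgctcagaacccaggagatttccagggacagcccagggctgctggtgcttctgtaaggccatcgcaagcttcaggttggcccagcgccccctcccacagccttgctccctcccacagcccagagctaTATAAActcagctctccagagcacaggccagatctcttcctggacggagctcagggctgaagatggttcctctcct
Thbs3, chr3:89214930-89215229, + strand: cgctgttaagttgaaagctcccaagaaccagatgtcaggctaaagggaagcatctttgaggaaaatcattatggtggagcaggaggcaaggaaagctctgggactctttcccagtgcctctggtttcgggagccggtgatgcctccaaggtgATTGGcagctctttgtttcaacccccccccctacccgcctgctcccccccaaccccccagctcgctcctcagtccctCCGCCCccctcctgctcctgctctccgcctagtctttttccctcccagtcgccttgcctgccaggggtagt

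The paralogues Postn and Tgfbi differed in these letters. Postn held 1 TATAAA, whose first base lies 26 bases before the start, and no GGGCGG. Tgfbi held 2 GC boxes and no TATAAA. Tnc held a TATAAA that begins 205 bases before the start and a GC box, and Thbs3 held a GC box and a CCAAT box. Of the 32851 listed mouse start regions of 300 bases, 13.6% hold TATAAA, 35.7% GGGCGG, 7.81% TGANTCA and 37.4% CCAAT. A match is a description of the letters, and no match says only that they are not in this window. Only these exact spellings were searched. Related ones, such as the tatataag that lies nearer the start of Tnc than its TATAAA, are not marked.

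Matricellular genes moved in both directions between the clones. On MG_U74Av2, 7 of the 8 tested probe sets were called, 3 higher (Tnc at both of its probe sets and Tgfbi) and 4 lower (Postn, Thbs3, Thbs2 and Sparc) in CD34+ clones. Over all probe sets tested on this chip type, 14.9% were called, 8.21% as higher and 6.69% as lower. The genes were chosen with earlier results of these data known, so these shares are a background and not a test of the set. The median difference was -0.40 over the 8 probe sets against 0.01 over all tested. At each of the 8 the 3 CD34+ RNAs lay on 1 side of the 3 CD34- RNAs, which held for 34.5% of all tested probe sets. The exact permutation p was 0.1 at each of the 8, two-sided, the smallest that 3 against 3 RNAs can give. Leaving out any 1 RNA left 6 or 7 called.

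**Figure D1:**
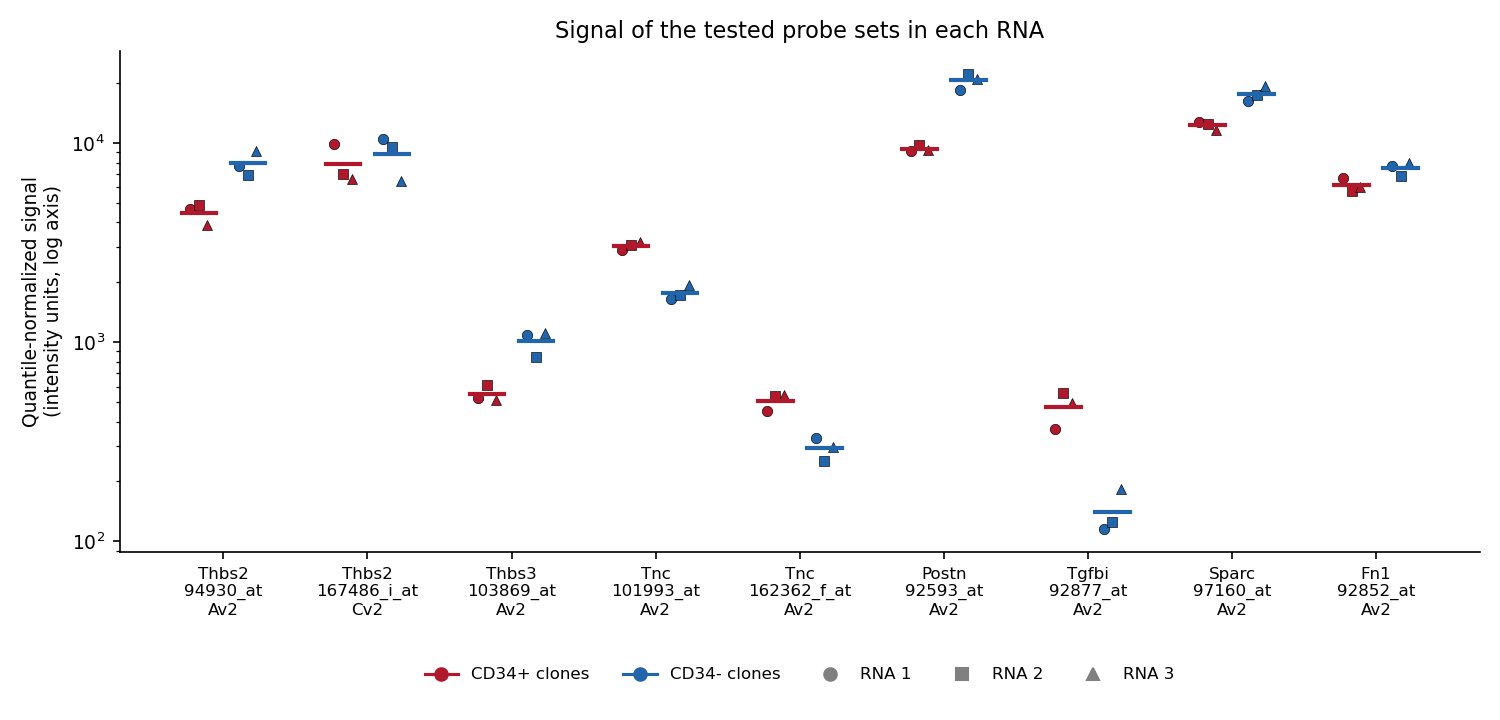
Quantile-normalized signal (intensity units, log axis) of the 9 tested probe sets in each RNA, with CD34+ clones in red, CD34- clones in blue, a symbol for each RNA and a bar at the group mean. The groups separate at the 8 probe sets of MG_U74Av2 and overlap at the Thbs2 probe set of MG_U74Cv2.

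Thrombospondins are large calcium-binding glycoproteins. Thbs2 forms trimers, is known as an inhibitor of blood vessel growth and helps collagen fibrils assemble in mouse skin. At its probe set on MG_U74Av2, Thbs2 read 4658, 4869 and 3877 in CD34+ RNAs 1 to 3 and 7683, 6936 and 9150 in CD34- RNAs 1 to 3. The highest CD34+ RNA stayed below the lowest CD34- RNA. The group means were 4468 ± 523 and 7923 ± 1130 (SD, n = 3 RNAs each), a fall of 1.76-fold (log2 -0.82, SE 0.12, 95% interval -1.10 to -0.54, limma adjusted p = 0.00299). It ranked 229th among the falls of 7634 tested probe sets.

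A further Thbs2 probe set on MG_U74Cv2 did not show this. It read 9931, 7014 and 6628 in CD34+ and 10450, 9574 and 6476 in CD34- RNAs, so the groups overlapped, and CD34+ RNA 1 and CD34- RNA 3 lay with the other group. The difference was -0.16 with an interval of -0.66 to 0.34 (limma adjusted p = 0.89). It ran from -0.37 to -0.03 with 1 RNA left out. On this chip type fluidics station 1, a wash unit, held all 3 CD34+ arrays and 1 CD34- array and station 2 the other 2 CD34- arrays, and the difference was -0.43 with the station as a block or within station 1 (adjusted p = 0.875 and 0.79). On MG_U74Cv2 7 of 7481 probe sets were called (0.0936%), and groups separated in 14.1%. Set against each other within each RNA, the changes at the 2 probe sets differed by -0.66 on the log2 scale (exact permutation p = 0.1, two-sided, a comparison chosen after the values were seen), without the station taken into account. All RNAs and their labels were shared between the chip types, but the arrays were not.

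Thbs3 encodes a thrombospondin of the pentamer-forming group, expressed in the skeleton. It read 526.5, 609.3 and 512.7 in CD34+ RNAs and 1089, 844.9 and 1116 in CD34- RNAs. Every CD34+ value was under every CD34- value. The means were 549.5 ± 52.2 and 1017 ± 149, a fall of 1.77-fold (log2 -0.82, SE 0.15, limma adjusted p = 0.00644). Within fluidics station 2, the wash unit that held 2 CD34+ and 2 CD34- arrays of MG_U74Av2, the difference was -0.73 (adjusted p = 0.051), and within station 1, with 1 array of each group and no test, it was -1.01. Thbs4, another pentamer-forming thrombospondin, known from tendon and muscle, had 1 probe set on MG_U74Bv2 that passed the filter on 0 arrays. It read 49.49 to 191.6 in CD34+ and 16.91 to 167.1 in CD34- RNAs, with overlapping groups, and was not tested.

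Tenascins are large oligomeric glycoproteins. Tnc is switched on in development, wounds and tumours, and in mouse marrow it is needed for the recovery of blood formation after injury. At its brighter probe set, Tnc read 2899, 3071 and 3175 in CD34+ RNAs and 1659, 1735 and 1937 in CD34- RNAs. All CD34+ RNAs were above all CD34- RNAs, and the RNAs of a group lay close together. The means were 3048 ± 140 and 1777 ± 143, a rise of 1.7-fold (log2 0.76, 95% interval 0.53 to 0.99, limma adjusted p = 0.00163). Within station 1 it was 0.57 and within station 2 it was 0.86 (adjusted p = 0.0102).

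The second Tnc probe set, of a kind that can bind related sequences, read 452.6, 535.3 and 541.2 in CD34+ and 332.4, 253.1 and 298.1 in CD34- RNAs. The groups again did not overlap. It rose by 0.70 on the log2 scale (SE 0.16, limma adjusted p = 0.0212). The changes at the 2 probe sets differed by 0.06 within RNAs (exact permutation p = 0.9, two-sided, also chosen after the values were seen). The call of the second probe set was lost when CD34+ RNA 2 was left out (adjusted p = 0.0887), as with CD34+ RNA 3 (0.0778) and CD34- RNA 2 (0.0542), and within station 2 (log2 0.79, adjusted p = 0.0529), while the brighter one kept its call in all 6 leave-outs.

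Tnxb, tenascin X, is a collagen-spacing tenascin of skin and tendon, whose loss in humans gives lax skin and joints. Its 2 probe sets on MG_U74Av2 each passed the filter on 1 array and were not tested. One read 249.2, 73.86 and 62.19 in CD34+ RNAs against 56.93 to 93.07 in CD34- RNAs, and the other 59.92 to 145.2 against 117.4, 310.7 and 88.96. In each, 1 RNA stood apart (CD34+ RNA 1 at the first, CD34- RNA 2 at the second), the groups overlapped, and the 2 probe sets differed in sign (log2 0.43 and -0.58). No level of Tnxb could therefore be set against that of Tnc.

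Postn and Tgfbi are paralogues that carry repeated fasciclin-like domains and bind collagens and integrins. Postn, periostin, is made by periosteum and fibroblasts and helps to activate the collagen cross-linking enzyme Lox. It read 9150, 9781 and 9229 in CD34+ RNAs and 18610, 22400 and 21010 in CD34- RNAs, so that the groups were far apart and the CD34+ RNAs varied by only 3.66% (coefficient of variation). The means were 9387 ± 344 and 20670 ± 1920, a fall of 2.19-fold (log2 -1.13, 95% interval -1.31 to -0.95, limma adjusted p = 8.28e-05). This was the 96th largest fall on the chip type. It was -1.20 within station 1 and -1.10 within station 2 (adjusted p = 0.00409).

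Tgfbi went the other way. TGFBI is a secreted integrin-binding protein named for its induction by TGF-beta. At its brighter probe set it read 365.5, 554.8 and 494.3 in CD34+ RNAs and 114.9, 125.5 and 183.2 in CD34- RNAs. The lowest CD34+ RNA was above the highest CD34- RNA. The means were 471.5 ± 96.7 and 141.2 ± 36.8, a rise with a fitted log2 difference of 1.44 (SE 0.22, limma adjusted p = 0.00337). The probe set passed the filter on 4 of 6 arrays, the 3 CD34+ arrays and 1 CD34- array, so that it entered the test through the group where it was high and no exact fold is given. The fitted size moved with the offset and the station: 1.02 with the 40th percentile as the offset, 0.83 within station 1 and 1.75 within station 2 (adjusted p = 0.0084). A second Tgfbi probe set passed the filter on 0 arrays, with 3.291 to 57.43 in CD34+ and 5.755 to 65.89 in CD34- RNAs, overlapping, and was not tested.

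The opposite changes of the paralogues were set against each other within each RNA. Their changes differed by -2.57 on the log2 scale (pooled SD 0.25, exact permutation p = 0.1, two-sided), and the per-RNA differences of the groups did not overlap. Each gene alone already separated the groups, in opposite directions. This p and the lack of overlap were therefore fixed in advance and add nothing to the 2 single-gene results. The size of this value rests in part on the dim Tgfbi signal in CD34- clones and ran from -2.79 to -2.14 over the settings tried on scaled signals.

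**Figure D2:**
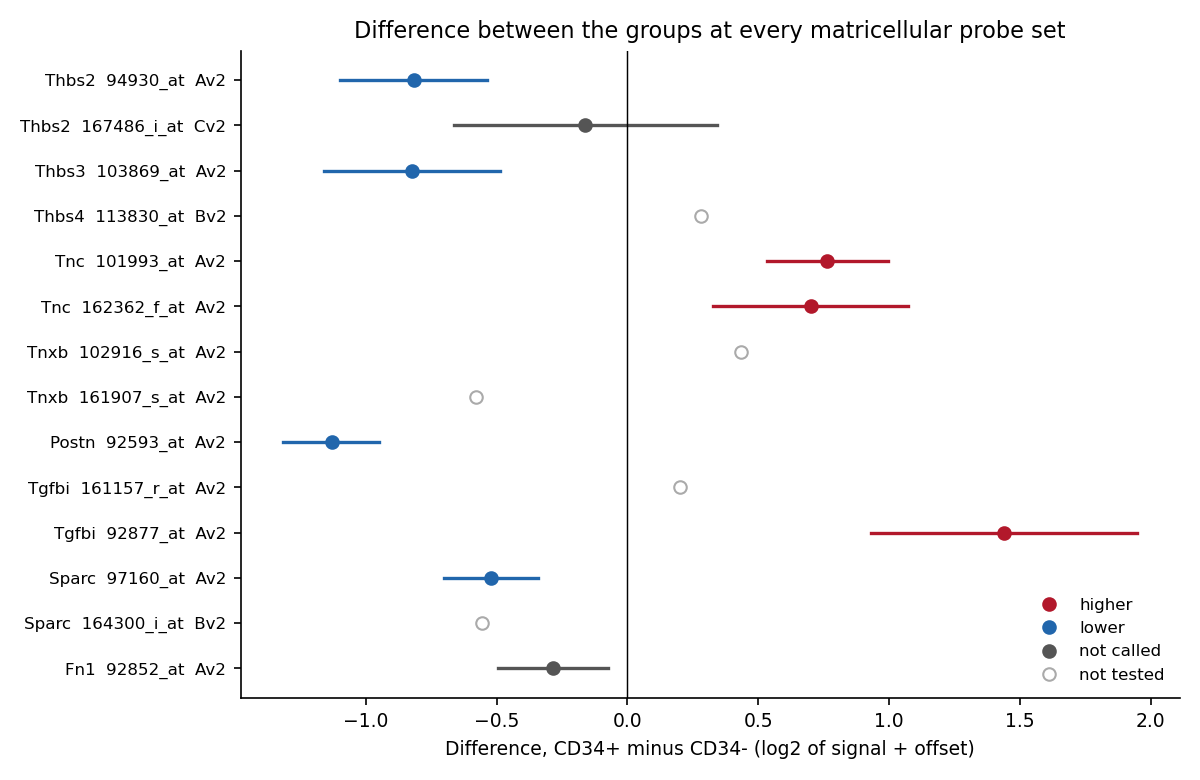
Difference between CD34+ and CD34- clones (log2 of signal + offset) at each of the 14 probe sets, with limma's 95% interval for the 9 tested and open circles for the 5 that were too dim to test. Tnc and Tgfbi lie to the right of 0, Postn, Thbs2, Thbs3 and Sparc to the left.

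Sparc encodes osteonectin, a collagen-binding protein abundant in bone. It read 12810, 12510 and 11620 in CD34+ RNAs and 16380, 17400 and 19340 in CD34- RNAs, with no overlap. The means were 12310 ± 620 and 17710 ± 1500, a fall of 1.43-fold (log2 -0.52, SE 0.08, limma adjusted p = 0.00308). A further Sparc probe set on MG_U74Bv2 passed the filter on 1 array. It read 34.27 to 45.25 in CD34+ RNAs and 30.96, 385.8 and 38.13 in CD34- RNAs, where CD34- RNA 2 alone stood apart, and it was not tested.

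Fn1, fibronectin, carries integrin-binding sites and is the scaffold on which Tnc, Postn and thrombospondins can be laid down. It read 6699, 5767 and 6032 in CD34+ RNAs and 7712, 6837 and 8001 in CD34- RNAs. The groups did not overlap, although CD34+ RNA 1 came within the SD of the lowest CD34- RNA. The means were 6166 ± 480 and 7517 ± 606, a difference of -0.28 (95% interval -0.49 to -0.07, unadjusted p = 0.0139) that did not pass the test across all probe sets (limma adjusted p = 0.0746). Without CD34- RNA 2 the adjusted p was 0.0499. Among all tested probe sets of the chip type, 58.3% had a smaller difference than Fn1, against 83.8% for Sparc and 97.9% for Postn.

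**Figure D3:**
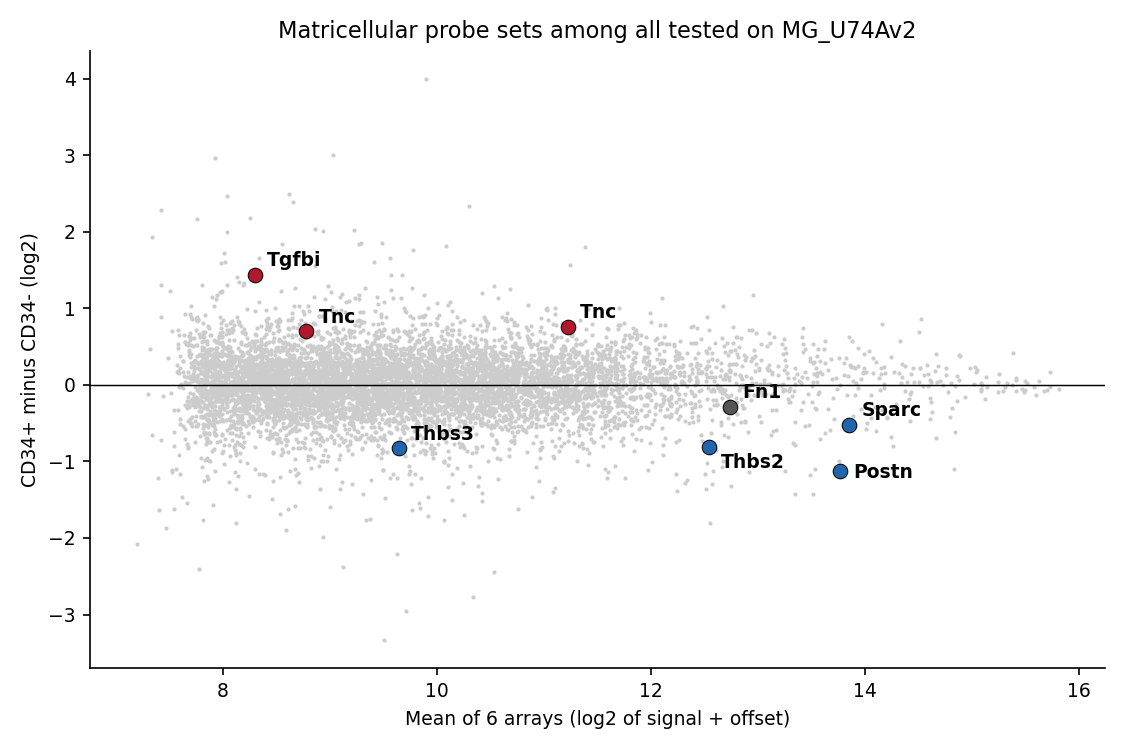
Difference between the groups against the mean log2 signal for all 7634 probe sets tested on MG_U74Av2 (grey), with the matricellular probe sets in red (called higher), blue (called lower) and dark grey (not called). Tgfbi and the 2 Tnc probe sets lie above 0, and Postn, Sparc, Thbs2, Thbs3 and Fn1 lie below.

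The coefficient of variation within a group was 3.66% to 14.7% for the tested probe sets of Postn, Sparc, Fn1, Thbs2, Thbs3 and Tnc on MG_U74Av2. It was 20.5% and 26% for Tgfbi and 23% and 23.6% for Thbs2 on MG_U74Cv2. Under the other processing and blocks tried, the direction of each of the 9 tested probe sets held, apart from deposited signals left on their separate scales.

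**Figure D4:**
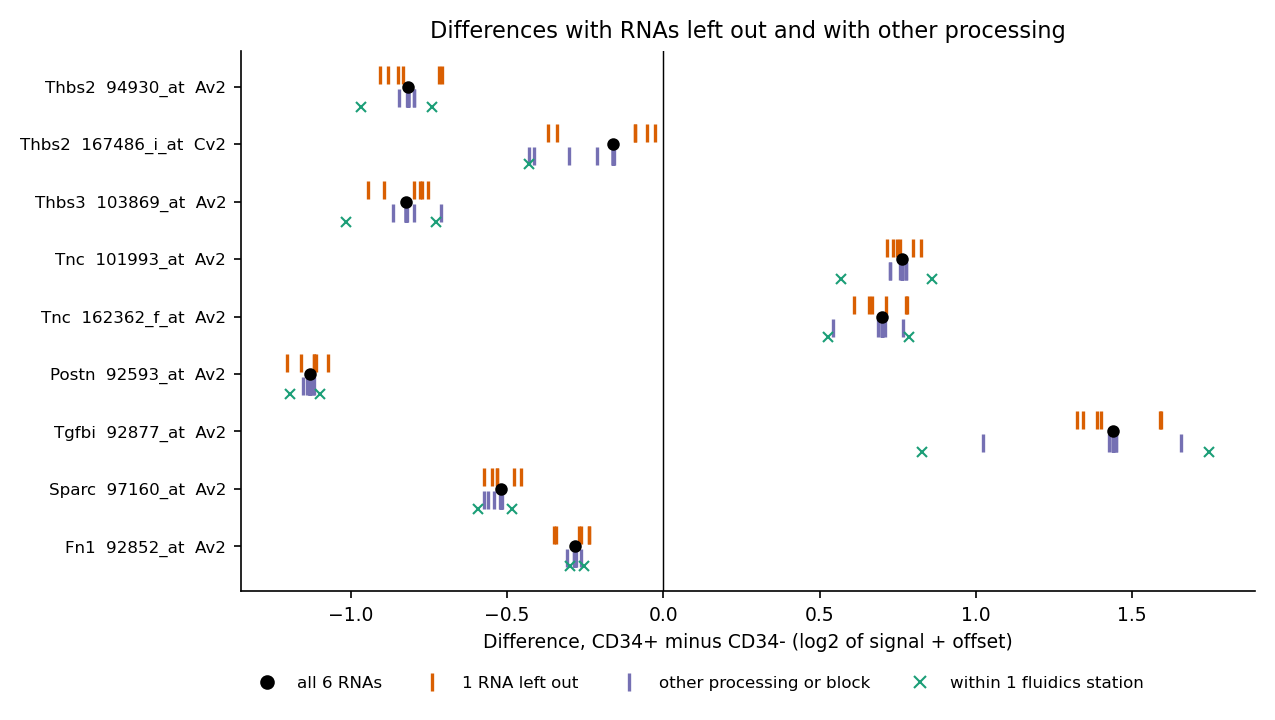
Difference between the groups (log2 of signal + offset) at the 9 tested probe sets with all 6 RNAs (black), with each RNA left out (orange), with other processing or a block (purple; unscaled deposited signals are not drawn) and within a fluidics station (green crosses). Every value stays on the same side of 0, and the values for Tgfbi spread most.

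Surface receptors of these proteins changed in part. In this and the following lists each gene is represented by 1 probe set, the brightest tested one on the first chip type that has one. Among the 11969 genes so represented 7.90% were called (4.39% higher, 3.51% lower), around a median of 0.02. Most list genes were read on MG_U74Av2, where 14.9% of all tested probe sets were called (8.21% higher, 6.69% lower). For them that share is the closer comparison, because the other chip types gave far fewer calls. It rose with the brightness required for a test. On MG_U74Av2, 953 of 12422 were called with no filter and 1203 of 5130 with the filter at the 60th percentile. No share at the brightness of the list genes was computed. Of 19 listed receptors 13 were tested, 4 were called lower and 1 higher (median -0.12). Cd47, a receptor of thrombospondins, fell from 3486 ± 515 to 1282 ± 116 (log2 -1.40, limma adjusted p = 2.48e-04), and its second probe set was also called lower (adjusted p = 2.88e-04). Itgb5 and Itgb1, integrin beta chains, fell by 0.53 and 0.43, and Lrp1, a scavenger receptor that clears thrombospondins, by 0.31 (adjusted p = 0.0338). The second Itgb5 probe set was not called (log2 -0.40, adjusted p = 0.296), and of 2 further Itgb1 probe sets 1 was called lower (adjusted p = 0.00667) and the MG_U74Cv2 one was not (adjusted p = 0.845). Itga3, an integrin alpha chain that binds laminins and Thbs1, rose from 756.4 ± 8.81 to 1540 ± 241 (log2 0.97, adjusted p = 0.00209), while its second probe set differed by 0.52 (adjusted p = 0.0929). Itgav, the alpha chain shared by the receptors of Postn, Tgfbi and Tnc, differed by 0.19 (adjusted p = 0.186), and Itga5, of the main fibronectin receptor, by -0.34 (adjusted p = 0.176). Lrp1 lost its call without any 1 RNA (adjusted p up to 0.135) and Itgb1 without CD34+ RNA 3 (0.0612), which left 3 called.

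Among collagens and other fibril partners, calls went only one way. Of 20 listed 16 were tested, 8 fell and 0 rose (median -0.60). Besides Col1a1 and Col3a1 (log2 -1.10 and -1.81), Col6a2 fell from 3539 ± 204 to 1740 ± 32 (limma adjusted p = 2.75e-04), Col6a1 by 0.99 and Col5a1 by 0.96. Lox, the cross-linking enzyme, fell by 0.75. Col1a1, Col1a2 and Col3a1 also stand in the stromal marker list, whose summed signal was lower in CD34+ clones, as does the co-receptor Eng. The 8 genes kept their calls in all 6 leave-outs. Further tested probe sets of Col1a2 (adjusted p = 0.343), Col5a1 on MG_U74Cv2 (0.151) and Col6a3 (0.557) were not called, and the collagens Col5a2, Col12a1 and Col14a1 were not called either (0.262, 0.462 and 0.938). Proteases that cut these proteins gave 6 lower and 0 higher of 9 tested among 13 listed (median -0.72). Mmp14, a membrane collagenase, fell from 8299 ± 495 to 4063 ± 176 (log2 -1.02, limma adjusted p = 1.32e-04). Ctsk, a cathepsin that cuts collagen, read 133.1 to 254.6 in CD34+ and 1113 to 1360 in CD34- RNAs. It passed the filter on 5 of 6 arrays, so its fitted fall of 2.38 on the log2 scale rests in part on dim CD34+ signal. Ctsb, a lysosomal cathepsin, fell 1.99-fold, and Htra1, a serine protease that cuts fibronectin, by 0.72 on the log2 scale. A second probe set on MG_U74Cv2 was not called for Htra1 (log2 -0.14, interval -0.40 to 0.11, adjusted p = 0.796), Ctsk (log2 -0.56, adjusted p = 0.707) or Plat (log2 -0.01, adjusted p = 0.993). Mmp13, a collagenase, read 90.75 to 146.4 in CD34+ and 208.5 to 391.6 in CD34- RNAs and passed the filter only on the 3 CD34- arrays, so no exact size is given. It was called lower (adjusted p = 0.0227) and lost its call in 4 of 6 leave-outs (up to 0.0941), as did Plat, a plasminogen activator (log2 -0.55, adjusted p up to 0.129).

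The TGF-beta axis, which Thbs1 can activate and which induces Tgfbi, Postn, Tnc and Fn1, gave calls no more often than genes at large. The share called was 7.90% over all represented genes and 14.9% over the probe sets tested on MG_U74Av2. Of 17 listed genes 16 were tested, 1 fell and 0 rose (median -0.14). Eng, a co-receptor of TGF-beta, fell by 0.42 (limma adjusted p = 0.0242; second probe set not called, adjusted p = 0.0986) and lost its call without CD34+ RNA 1, CD34+ RNA 2 or CD34- RNA 1 (adjusted p up to 0.102). The ligands Tgfb2 and Tgfb3 differed by -0.57 and -0.56 (adjusted p = 0.0683 and 0.0611), and Tgfb1 by -0.01. Relatives of the same families gave 1 call among 6 tested of 15 listed, too few to read against those shares. Fstl1, a secreted relative of Sparc, fell from 4590 ± 715 to 2104 ± 666 (log2 -1.14, limma adjusted p = 0.00589). Tnn, tenascin N, differed by 0.51 (adjusted p = 0.626) and Smoc2, a further Sparc relative, by 0.39 (adjusted p = 0.232), both with overlapping groups.

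**Figure D5:**
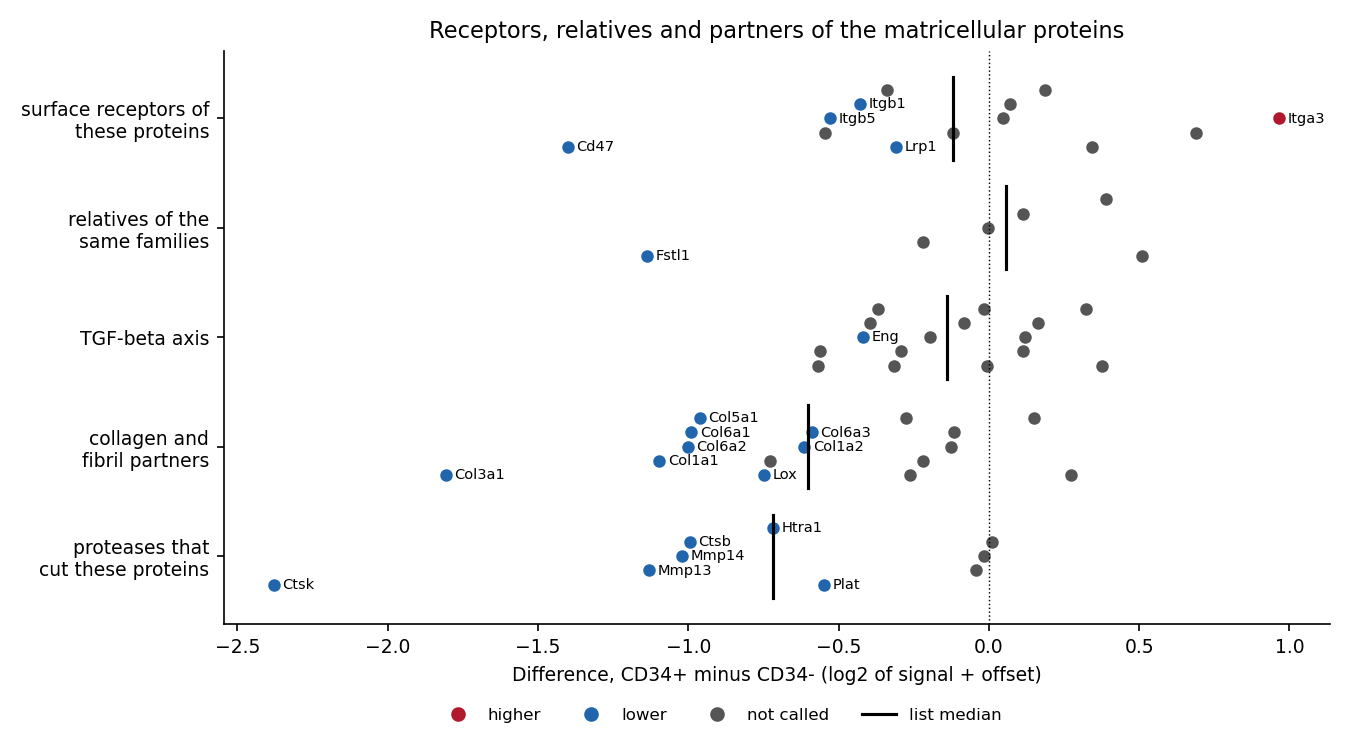
Difference between the groups (log2 of signal + offset) for each tested gene of the 5 lists, coloured by call, with the list median as a black bar and called genes named. Collagens and proteases lie mostly to the left of 0, and Itga3 is the only gene called higher.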

How the data were processed

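Each deposited value is a probe set's intensity on a linear scale, which the authors computed with MAS5 according to the submitters' processing notes, without a version or settings in the sources used here. The CD34+ arrays had a trimmed mean (2% at each end) of 1500 to 1501, which exceeded that of CD34- arrays 14.1 to 19.5 times on MG_U74Av2, and by more on MG_U74Bv2 (45 to 55.9) and MG_U74Cv2 (83.7 to 120). The 6 arrays of each chip type were therefore quantile normalized, without the 66 control probe sets. Arrays have no read depth, and their number limits the precision.

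Fits were made per chip type with limma 3.58.1 in R 4.3.3 (lmFit, eBayes with an intensity trend, group as the only term) on log2(signal + offset), with Benjamini-Hochberg adjustment over all tested probe sets (7634, 7737 and 7481). Offsets were 51.5, 106 and 97.9. The offset shrinks changes at low signal. Symbols came from GEO's platform annotation, and a probe set with several symbols was given none. Members, lists and tests were chosen with earlier results of these data known. Named were all member probe sets, Cd34 and, per list, up to 5 called genes with the largest difference; the remaining names were picked once values were known. Of 4 planned pairs of paralogues only 1 could be compared, because Thbs1 and Tnxb had no tested probe set of their own.

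The RNAs carry replicate numbers 1 to 3 in both groups. Nothing in the labels says that they pair RNAs, and deviations from the group means of same-numbered RNAs correlated at -0.049 to 0.07, so the numbers were not used as a block. Alternatives covered normalization, offset, filter, variance model, blocks, stations and the RNAs left out.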

Additional observations from a re-analysis of the deposited data

How the results depend on the processing

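Without counting the unscaled signals, the 9 tested probe sets gave 177 values under alternatives. Of these, 167 kept direction and, where a test was made, side of the threshold. A further 5 lost the call, 1 gained it, 4 moved by more than the spread and 0 reversed. The 4 that moved were those of Thbs3, Tgfbi and both Tnc probe sets within station 1, where 1 array of each group leaves no test. The station 1 values of Thbs2, Postn, Sparc and Fn1 on MG_U74Av2 also had no test. They are among the 167 for their direction and size alone. Deposited signals with no scaling had a median shift of 3.7 on MG_U74Av2 and 6.3 on MG_U74Cv2 and would put all 8 tested probe sets of MG_U74Av2 and the 1 of MG_U74Cv2 higher in CD34+ clones, by construction: Thbs2 by 3.15 and 6.35, Thbs3 by 2.95, Postn by 2.85, Sparc by 3.43 and Fn1 by 3.69. Relative to that median, Thbs2 and Fn1 of MG_U74Av2 lay at -0.55 and -0.01 and Postn at -0.85. With the replicate block 7 member probe sets were called on MG_U74Av2 and 0 on the other chip types, and no member's call changed, while the TGF-beta genes called went from 1 to 2, the proteases from 6 to 5 and the receptors from 5 to 4. On MG_U74Bv2 no member was tested except without a filter, where 0 of 2 were called. The difference of changes between Postn and Tgfbi ran from -2.79 to -2.14. Over all of MG_U74Av2, 634 to 1230 probe sets were called with 1 RNA left out, and 0 or 1 on MG_U74Cv2. The receptors called fell to 3 with centred signals or without a variance trend, and the TGF-beta genes called ran from 0 to 3, settings added for the lists after seeing the data. The cause of these changes was not tested. Dim signal left Thbs4, Tnxb and 1 probe set each of Tgfbi and Sparc without a test.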

Other observations

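One probe set on MG_U74Av2 is annotated to both Pald1 and Thbs1 and was left out of the members for that reason. It read 15260, 15740 and 14690 in CD34+ RNAs and 24770, 23420 and 24950 in CD34- RNAs, without overlap. The means were 15230 ± 527 and 24380 ± 835 (SD, n = 3 RNAs each), a fall of 1.6-fold (log2 -0.68, SE 0.06, limma adjusted p = 2.24e-04). The annotation does not settle which of the 2 genes it measures, so no direction is given for Thbs1.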
